A study of Mus musculus with 48 samples.

Results

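The mitochondrial ribosomal proteins are encoded by nuclear genes whose mouse symbols begin with *Mrpl* or *Mrps*, and they were taken here as every protein-coding gene in the FPKM table with such a symbol followed by a digit. The rule found 78 genes among the 56748 of the table, and left out 6 pseudogenes and genes of other biotypes with the same kind of symbol. By the products' known places, 51 of the 78 belong to the large subunit, 26 to the small subunit, and *Mrps36* was kept apart. A total of 77 genes passed the filter on low counts. The exception, *Mrpl53*, was listed at 0 in all 48 libraries, and its deposited position (mm39, chr6:83086021-83086920, plus strand) lay wholly within *Gm42688* on the same strand.

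Mitochondria carry their own ribosome, which translates the few messenger RNAs of the mitochondrial genome into core subunits of the respiratory chain and of ATP synthase. Its ribosomal RNAs are made inside the organelle, whereas its proteins are made in the cytosol, imported, and assembled there with the help of dedicated GTPases, RNA helicases, and methyltransferases. Skeletal muscle is rich in mitochondria, and many genes of this family are known targets of NRF1 and of ETS-family factors such as GABP, which also drive nuclear genes of respiration.

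The libraries were bulk RNA-seq of tibialis anterior muscle from male mice aged 39 to 55 weeks by the labels, kept in constant darkness and collected every 4 h at 6 circadian times (CT), from CT18 to CT38. KPC mice bore tumors seeded in the pancreas with KPC cells, which are mouse pancreatic cancer cells, and controls were given saline. FoxP1SkmKO mice carried floxed *Foxp1* and a Cre driven by the ACTA1 promoter, which acts in muscle fibers and leaves *Foxp1* intact in other cells of the muscle. The methods call the WT mice C57BL/6J while the series record calls them floxed mice without Cre, and the sources give different ages, so neither the WT genotype nor the age is certain. Each of the 24 combinations of genotype, condition, and time held 2 mice, or 12 mice for each genotype and condition. In bulk muscle, fewer cells of a type and less RNA per cell cannot be told apart.

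The libraries held between 14480867 and 20787784 counts on genes (median 16602092). Bulk FoxP1SkmKO muscle also holds cells with intact *Foxp1*, so counts over the whole gene do not measure its deletion in fibers. By such counts the targeted gene, *Foxp1*, was not called lower in FoxP1SkmKO muscle. Its log2 fold change against WT was -0.11 (SE 0.07, adjusted p = 0.459) in control mice and -0.20 (SE 0.07, adjusted p = 0.246) in KPC mice, by the quasi-likelihood test of edgeR, with p-values adjusted by Benjamini-Hochberg over all genes tested. Muscle fiber markers summed to between 37360 and 51753 FPKM per library, and pancreas markers reached at most 0.206 FPKM. Liver markers summed to 195 FPKM in replicate 2 of FoxP1SkmKO KPC muscle at CT18 and to 66.1 FPKM in a FoxP1SkmKO control library at CT22, and the CT18 comparison that includes the former is given with and without it.

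The members' RNA levels in muscle spanned 29.8-fold. FPKM divides reads by library size and by the deposited gene length, so the order of genes also depends on that length. The highest level was that of *Mrpl12*, whose protein sits on the stalk that recruits translation factors, at 71.5 ± 8.40 FPKM (mean ± SD, n = 48 libraries). It was followed by *Mrps21* (58.7 ± 6.71 FPKM), *Mrpl2*, whose protein lies near the peptidyl transferase center (55.2 ± 5.51 FPKM), *Mrpl34* (53.8 ± 8.20 FPKM), and *Mrps28* (50.5 ± 6.78 FPKM). Neighbors in this order lay within each other's SD, except that *Mrpl12* stood above *Mrps21* by more than either SD. The lowest levels were those of *Mrpl19* (2.48 ± 0.251 FPKM), *Mrpl32* (2.47 ± 0.290 FPKM), and *Mrps30* (2.40 ± 0.274 FPKM), which did not differ beyond their spread.

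**Figure D1:**
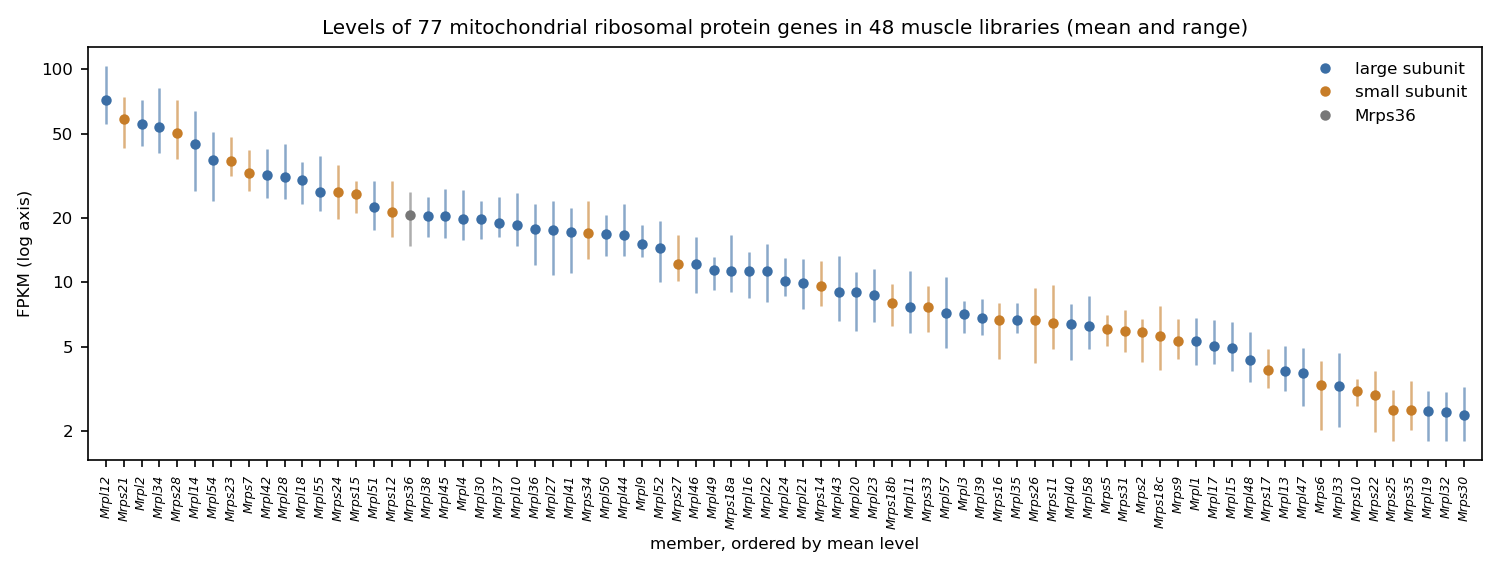
Mean level (point) and range over the 48 libraries (line) of the 77 detected members on a log FPKM axis, ordered by mean and colored by subunit. Levels run from 71.5 FPKM for *Mrpl12* to 2.40 FPKM for *Mrps30*, with both subunits spread along the whole order.

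The median member stood at 10.1 FPKM, and 42 members lay within 2-fold of it. The median was 11.4 FPKM for the large subunit and 6.68 FPKM for the small subunit. The deposited gene length enters these medians and the levels below. Genes of a shared functional site differed in FPKM. Of the stalk base, *Mrpl10* was at 18.6 FPKM and *Mrpl11* at 7.67 FPKM, against 71.5 FPKM for the stalk protein gene *Mrpl12*. Near the peptidyl transferase center, *Mrpl3* was at 7.11 FPKM, well under *Mrpl2*, with deposited lengths of 6661 and 1170 bases. *Mrpl44*, which has an RNase III-like fold, was at 16.7 FPKM, *Mrpl45*, at the tunnel exit that faces the inner membrane, at 20.6 FPKM, and *Mrpl58*, a peptidyl-tRNA hydrolase built into the ribosome, at 6.27 FPKM. In the small subunit, the decoding-site gene *Mrps12* was at 21.4 FPKM, *Mrps34* at 17 FPKM, the pentatricopeptide repeat gene *Mrps27* at 12.2 FPKM, and *Mrps5* at 6.03 FPKM. *Mrps18a* (11.3 FPKM) and *Mrps30* (2.40 FPKM) were counted with the large subunit, where their proteins sit despite their symbols, and *Mrps36* (20.6 FPKM), whose product is a subunit of the 2-oxoglutarate dehydrogenase complex, was counted with neither.

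The members varied little from library to library, and most of them moved together. The coefficient of variation over the 48 libraries ranged from 6.64% for *Mrpl3* to 17.8% for *Mrpl27*, with a median of 11.4%. The correlation of a member's FPKM with the summed FPKM of the others had a median r of 0.69 and was over 0.5 for 63 members. It ranged from 0.89 for *Mrpl51* to -0.01 for *Mrps30*. These values describe 48 libraries that share groups, times, and a common scaling, and carry no test. The summed FPKM of the large subunit was 2.09 to 2.31 times that of the small subunit in every library, so the balance of the subunits was nearly fixed while their total ran from 1031 to 1594 FPKM, or 0.218 to 0.322% of counts. The members lay on 17 chromosomes, with at most 11 on one chromosome. By the deposited positions 41 overlapped another gene, 12 of them on the same strand, and the counting's use of strand was not stated. The same-strand neighbor with the highest level was *Urgcp* (10.9 FPKM), which overlaps *Mrps24*, whose counts are therefore uncertain. If strand was not used, the 36 members that overlap a gene on the opposite strand are uncertain too. Among them, *Mrpl47* shares 616 bases with *Ndufb5* (44.8 FPKM).

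Promoters of the family shared sequence features that the symbol did not select. Windows of 300 bases, from 250 before to 50 after the transcription start, were taken from RefSeq (GRCm38.p6) and found for 69 members, with 75 starts. The NRF1 motif GCGCNTGCG occurred on either strand in 24% of these windows, against 6.31% of all 32851 windows in the table. The ETS motif CCGGAAG occurred in 34.7% (8.86% of all), and the YY1 motif AAGATGGC in 16.0% (2.75% of all). At least 1 of these 3 motifs was present in 58.7% of member windows and in 16.0% of all windows. The E-box CACGTG, bound by clock activators, was in 9.33% (7.15% of all). These were 7 windows of only 5 members, because overlapping windows of *Mrpl2* share the same E-box. The ROR half-site AGGTCA was in 14.7% (16.3% of all), and the forkhead motif TGTTTAC, of the type that FoxP1 binds, in 2.67% (3.65% of all). A match describes letters only and is no evidence of binding. Matches may overlap, as a pair of the NRF1 matches of *Mrpl32* does.

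The 4 windows below belong to members called lower in WT KPC muscle at CT26, described further on, and show the NRF1, ETS, and YY1 motifs of the family beside each other. Capitals mark matches to any of the 6 motifs, so that CTTCCGG is the ETS motif, GCCATCTT the YY1 motif, and TGACCT the ROR half-site read on the other strand. *Mrpl32* (chr13:14612988-14613287, minus strand) had NRF1 matches starting at -87, -86, and -23 from the start site and a YY1 match at -242. *Mrps21* (chr3:95871465-95871764, minus strand) had an NRF1 match at -91, an ETS match at 19, and ROR half-sites at -175 and -62. *Mrps18a* (chr17:46110754-46111053, plus strand) held an ETS match at -26 and a YY1 match at 12, and *Mrps27* (chr13:99344536-99344835, plus strand) an ETS match at -48 and a YY1 match at 15. Each runs 5′ to 3′ on the gene's strand.
Mrpl32: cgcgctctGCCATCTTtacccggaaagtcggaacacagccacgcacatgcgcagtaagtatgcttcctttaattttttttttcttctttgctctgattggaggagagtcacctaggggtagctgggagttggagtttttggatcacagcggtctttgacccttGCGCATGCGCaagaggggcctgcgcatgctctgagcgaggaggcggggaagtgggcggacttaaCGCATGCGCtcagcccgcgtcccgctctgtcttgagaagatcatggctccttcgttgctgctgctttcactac
Mrps21: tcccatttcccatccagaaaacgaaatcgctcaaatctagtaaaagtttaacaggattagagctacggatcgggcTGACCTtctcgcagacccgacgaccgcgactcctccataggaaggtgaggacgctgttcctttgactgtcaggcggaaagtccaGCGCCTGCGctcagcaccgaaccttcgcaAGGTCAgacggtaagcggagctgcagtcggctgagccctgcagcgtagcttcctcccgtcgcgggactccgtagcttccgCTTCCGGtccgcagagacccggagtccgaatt
Mrps18a: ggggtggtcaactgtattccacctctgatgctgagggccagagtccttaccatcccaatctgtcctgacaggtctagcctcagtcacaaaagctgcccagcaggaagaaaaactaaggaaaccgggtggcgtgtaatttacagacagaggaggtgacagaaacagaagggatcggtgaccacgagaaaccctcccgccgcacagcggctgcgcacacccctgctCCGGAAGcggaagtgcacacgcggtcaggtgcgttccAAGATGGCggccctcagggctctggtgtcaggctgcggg
Mrps27: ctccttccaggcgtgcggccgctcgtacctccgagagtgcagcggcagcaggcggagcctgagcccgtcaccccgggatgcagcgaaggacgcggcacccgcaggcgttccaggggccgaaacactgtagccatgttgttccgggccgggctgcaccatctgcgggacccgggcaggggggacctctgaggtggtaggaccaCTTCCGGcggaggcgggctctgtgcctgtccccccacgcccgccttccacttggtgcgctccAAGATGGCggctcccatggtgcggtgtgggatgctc

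Averaged over the 6 times, KPC tumors were accompanied by slightly lower levels of most members in WT muscle. The median log2 fold change of the 77 members was -0.065, against 0.0016 over all 15637 genes tested, and 71 members were negative. Each was small, from -0.16 for *Mrps18c* to 0.05 for *Mrpl57*. A single member, *Mrpl35* of the large subunit, was called lower, at a log2 fold change of -0.16 (SE 0.04, adjusted p = 0.0318). Among all genes, 0.627% were called lower in this comparison. Before adjustment 19 members had p under 0.05, against 15.2% of all genes.

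The lowest, median, and highest levels of *Mrpl35* were 6.52, 7.25, and 7.98 FPKM in WT control mice and 5.85, 6.36, and 7.03 FPKM in WT KPC mice (n = 12 each), so the groups overlapped. In FoxP1SkmKO mice they were 5.77, 6.73, and 7.32 FPKM without and 5.87, 6.18, and 7.19 FPKM with tumors. The WT control mice held the highest of these 4 medians. *Mrpl32*, whose precursor is matured by the m-AAA protease, followed at -0.15 (adjusted p = 0.0728), and *Mrps36* at -0.16 (adjusted p = 0.230), neither of them called. The call of *Mrpl35* was lost in 11 of the 24 fits that left out a WT mouse and in the average without CT26, with log2 fold changes from -0.18 to -0.14 when a mouse was left out.

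In FoxP1SkmKO muscle the averaged KPC effect had a median of -0.015 over members (0.0048 over all genes). None of the 77 was called by edgeR, 1 by DESeq2, and 4 had p under 0.05 before adjustment, where 0.428% of all genes were called and 12.4% had such a p. *Mrpl20*, which binds ribosomal RNA of the large subunit, had the lowest p, at -0.22 (SE 0.05, adjusted p = 0.0515). Without the CT18 library that carried liver RNA, 1 member was called. The lowest, median, and highest levels of *Mrpl20* were 5.98, 9.87, and 10.8 FPKM in FoxP1SkmKO control mice and 5.91, 7.96, and 10.2 FPKM in FoxP1SkmKO KPC mice. A difference of the KPC effect between genotypes was called for no member by edgeR or by DESeq2. The median of that difference was 0.048, 59 members were positive, and 4 had p under 0.05 before adjustment, where 0% of all genes were called and 6.52% had such a p.

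Genotype alone moved no member past the threshold. In control mice the FoxP1SkmKO minus WT difference had a median of -0.059 (0.0014 over all genes), with 66 members negative and 17 at p under 0.05 before adjustment, where 3.44% of all genes were called and 17.2% had such a p. The lowest p was that of *Mrps10*, a small subunit gene, at -0.13 (adjusted p = 0.0851), and the 2 ends of the range were *Mrps36* at -0.15 (adjusted p = 0.225) and *Mrpl33* at 0.16 (adjusted p = 0.166). In KPC mice the median was -0.019, with 46 negative and 6 at p under 0.05, where 0.320% of all genes were called and 10.8% had such a p. edgeR and DESeq2 each called 0 members in both comparisons. Related genes called lower in FoxP1SkmKO control mice were *Chchd1*, a small subunit protein with another kind of symbol (-0.17, adjusted p = 0.0295), *Malsu1*, a large subunit assembly factor (-0.16, adjusted p = 0.0195), and *Gtpbp10*, an assembly GTPase (-0.30, adjusted p = 0.0122). The lists of genes that act with the mitochondrial ribosome, described further on, held 5, 26, 15, 20, 8, 9, and 13 genes. With 3.44% of all genes called in this comparison, no result about these lists is drawn from the named genes.

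The members' summed level varied with circadian time. In WT control muscle it was 1137 ± 34.1 FPKM at CT18, 1281 ± 8.02 FPKM at CT22, and 1511 ± 117 FPKM at CT26 (mean ± SD, n = 2 mice). It was 1219 ± 33.1 FPKM at CT30, 1198 ± 59.0 FPKM at CT34, and 1276 ± 87.9 FPKM at CT38. The CT26 mice stood above every other WT control mouse. In WT KPC muscle the sum was 1050 ± 23.7 FPKM at CT18, 1233 ± 4.22 FPKM at CT26, and highest at CT38 at 1364 ± 125 FPKM. In FoxP1SkmKO control muscle it was 1042 ± 15.7 FPKM at CT18 and between 1197 and 1312 FPKM at the other 5 times. In FoxP1SkmKO KPC muscle it was lowest at CT26, at 1131 ± 36.5 FPKM, and 1147 ± 52.9 FPKM at CT18.

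**Figure D2:**
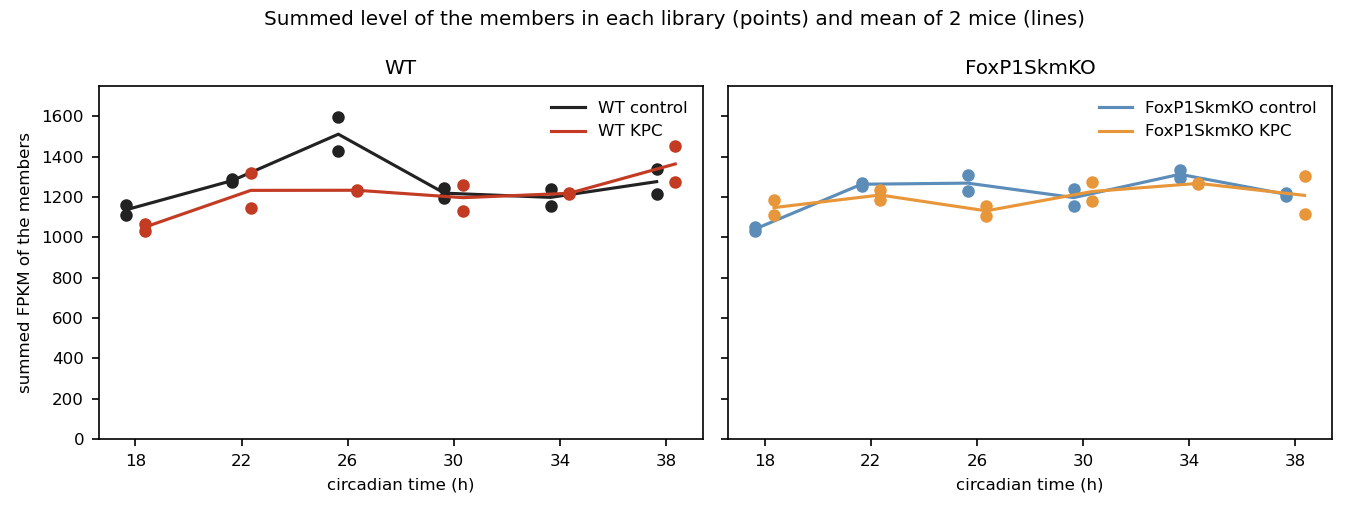
Summed FPKM of the 77 detected members (vertical axis) in each of the 48 libraries against circadian time in hours, with points for mice, drawn slightly apart for control and KPC, and lines through the means of 2 mice. The WT control mice at CT26 (1594 and 1428 FPKM) stand above the other WT control mice, and the CT18 mice lie low except in FoxP1SkmKO KPC muscle.

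At CT26, KPC tumors were accompanied by lower levels of mitochondrial ribosomal protein genes in WT muscle. Of the 77 members, 17 were called lower and 0 higher, where 2.53% of all genes were called lower and 4.64% higher. The median log2 fold change was -0.27 over members and 0.0037 over all genes, 75 members were negative, and 43 had p under 0.05 before adjustment (21.4% of all genes). Both subunits took part, with 11 of 50 large subunit members called (median -0.24) and 6 of 26 small subunit members (median -0.29). In 61 members both KPC mice lay below both control mice, where 23.5% of all genes did so, and in 0 members did both lie above, where 25.7% of all genes did so.

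The largest change was in *Mrpl32* (mm39, chr13:14782769-14787750), which was at 3.06 and 3.03 FPKM in the control mice and 2.18 and 2.12 FPKM in the KPC mice. Its log2 fold change was -0.51 (SE 0.11, adjusted p = 0.00414). *Mrpl55* (chr11:59093312-59096960) was at 39.1 and 33.5 FPKM in controls and 25.3 and 26.6 FPKM in KPC mice, with a log2 fold change of -0.49 (SE 0.12, adjusted p = 0.0137). In both genes the control values stood clear of the KPC values. *Mrpl15* (chr1:4843429-4855962) was at 6.52 and 5.91 FPKM against 5.09 and 3.86 FPKM, with a log2 fold change of -0.48 (SE 0.11, adjusted p = 0.00397), and its KPC mice lay further apart than its control mice.

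Among abundant members, *Mrps21* (chr3:95769946-95778831) fell from 72.9 and 70.0 FPKM to 54.2 and 50.8 FPKM, a log2 fold change of -0.45 (SE 0.10), with the lowest adjusted p of the family (0.00337). The stalk gene *Mrpl12* (chr11:120375439-120379891) was at 104 and 90.7 FPKM in controls and 74.7 and 74.0 FPKM in KPC mice (-0.39, SE 0.11, adjusted p = 0.0274). The 2 control values of *Mrpl12* were its highest in any of the 24 groups, whereas its KPC values were near its mean of 71.5 FPKM. The stalk base gene *Mrpl10* fell with it, from 26.2 and 21.3 FPKM to 17.6 and 17.8 FPKM (-0.43, adjusted p = 0.0107).

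Members at other sites of the ribosome changed by similar amounts. At the exit tunnel, *Mrpl23* was at 11.6 and 10.8 FPKM in controls and 8.27 and 8.55 FPKM in KPC mice (-0.42), and *Mrpl4* (chr9:20914034-20920135) at 26.6 and 27.2 FPKM against 21.9 and 20.7 FPKM (-0.34, adjusted p = 0.0318). In the small subunit, *Mrps27* was at 16.7 and 15.7 FPKM against 12.7 and 11.4 FPKM (-0.43, SE 0.11, adjusted p = 0.0133), and *Mrps26* at 9.39 and 7.79 FPKM against 6.53 and 5.95 FPKM (-0.47). *Mrps18a* was at 16.7 and 13.6 FPKM against 11.4 and 12.4 FPKM (-0.36, adjusted p = 0.0253). The other called members were *Mrps24* (-0.45), *Mrpl13* (-0.44), *Mrpl42* (-0.42), *Mrpl28* (-0.40), *Mrps14* (-0.37), and *Mrps23* (-0.32), the last the smallest change among the 17. Nearest to the threshold from outside were *Mrpl20* (-0.41, adjusted p = 0.0507), *Mrpl48* (-0.39, adjusted p = 0.0526), and *Mrps34* (-0.34, adjusted p = 0.0556), while *Mrpl19* stood at 0.01.

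**Figure D3:**
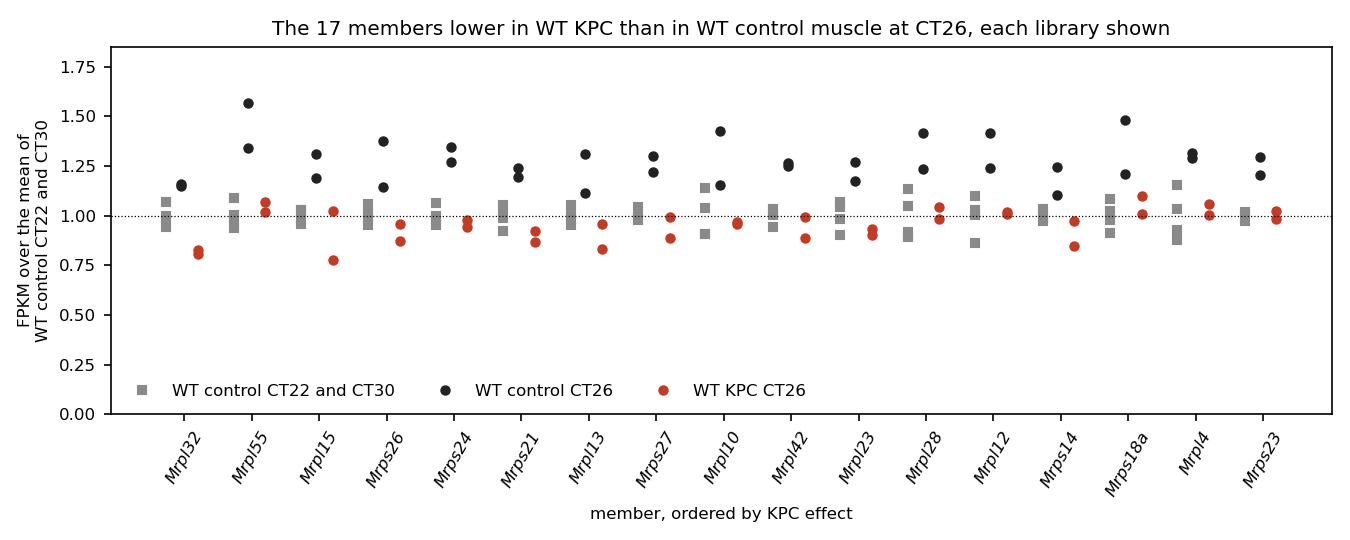
FPKM of the 17 members called lower in WT KPC muscle at CT26, divided by the member's mean in WT control muscle at CT22 and CT30 (dotted line at 1), with each library as a point. In each gene the 2 WT control CT26 mice (black) lie above the 2 WT KPC CT26 mice (red), and most KPC points lie near the level of the neighboring control times (grey).

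The number of calls turned on single libraries, most of all on replicate 1 of the 2 WT control mice of CT26. Without replicate 1 of them, 0 members were called (median -0.20), and without replicate 2, 24 were called (median -0.36). Leaving out either KPC mouse left 5 or 6. Fitting the 4 libraries of this comparison alone left 3. In these 2 control libraries members took 0.322 and 0.293% of counts, where the other 46 libraries ran from 0.218 to 0.289%. Other measures moved there too. Erythroid markers summed to 330 and 246 FPKM (81.7 to 306 in the other 46) and muscle fiber markers to 51753 and 46783 FPKM (37360 to 51246), against 161 and 177 FPKM of erythroid markers in the WT KPC mice at CT26. Their part in the result was not tested.

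The same WT control mice were compared with control mice of the neighboring times. At CT26, 28 members were called higher than the mean of CT22 and CT30 and 0 lower, where 6.41% of all genes were called higher and 8.65% lower. The median was 0.25 (0.0012 over all genes), 76 of 77 members were positive, and 46 had p under 0.05 before adjustment (28.1% of all genes). Of the 28, 17 belonged to the large and 11 to the small subunit. This contrast shares its 2 CT26 libraries with the KPC comparison at CT26, so the 2 results are not independent.

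*Mrpl55* rose most, from 27.2 and 24.1 FPKM at CT22 to 39.1 and 33.5 FPKM at CT26, and stood at 25 and 23.3 FPKM at CT30 (log2 difference 0.54, SE 0.11, adjusted p = 0.000575). *Mrpl34* was at 63.5 and 54.3, then 81.4 and 70.8, then 46.0 and 55.1 FPKM (0.48, SE 0.13, adjusted p = 0.00932). In both genes each CT26 mouse exceeded each mouse of the neighboring times. *Mrpl43* was at 9.64 and 8.36, then 13.3 and 10.3, then 6.63 and 9.88 FPKM (0.45, SE 0.12, adjusted p = 0.0109), with 1 CT26 mouse hardly above a CT30 mouse. *Mrps18a* rose by 0.43 (adjusted p = 0.000735), *Mrpl12* by 0.41 (adjusted p = 0.0031), and *Mrps30* by 0.40. The 2-oxoglutarate dehydrogenase gene *Mrps36* did not share this, with a difference near 0 and an adjusted p of 1. Without replicate 1 of the CT26 controls 1 member was called, without replicate 2, 33 were, and without replicate 1 of the CT30 controls, 16 were.

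In the other 3 genotype and condition groups, a comparison added after seeing the data, no member was called higher at CT26. WT KPC mice had a median of 0.046 and 0 calls (0.0128% of all genes), with 3 members at p under 0.05 before adjustment (7.03% of all genes). FoxP1SkmKO control mice had a median of 0.012 and 0 calls (0% of all genes), with 5 members at p under 0.05 (6.63% of all genes). DESeq2 called 0 members in both. In FoxP1SkmKO KPC mice 67 members were negative (median -0.10), 19 had p under 0.05 (10.2% of all genes), and *Mrpl32* was called lower, where 0.0448% of all genes were. *Mrpl32* was at 2.86 and 2.48 FPKM at CT22, 1.87 and 1.80 FPKM at CT26, and 2.86 and 2.41 FPKM at CT30 (-0.54, SE 0.10, adjusted p = 0.0120). The 2 CT26 mice lay below all 4 others. DESeq2 did not call it, and the call was lost without replicate 1 of CT22 or of CT30 or without either CT26 mouse. Whether the CT26 difference itself varied between the 4 groups was not tested.

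Genes that act with the mitochondrial ribosome were described by lists. In WT muscle at CT26, KPC mice had lower *Chchd1* (-0.41, adjusted p = 0.0198), 1 of 5 ribosome proteins with other symbols. They had lower *Ybey*, of ribosomal RNA processing (-0.69, adjusted p = 0.0117), and *Malsu1* (-0.38, adjusted p = 0.0137), 2 of 26 genes of assembly and RNA modification (median -0.18). Lower too were *Tufm*, the mitochondrial elongation factor Tu (-0.27, adjusted p = 0.0460), 1 of 15 translation factors, and *Fars2*, the phenylalanyl-tRNA synthetase (-0.38, adjusted p = 0.0266), 1 of 20 genes of aminoacyl-tRNA synthesis. None of 8 genes of mitochondrial DNA transcription and copying was called lower, none of 9 nuclear regulators (median 0.13), and none of 13 mitochondrially encoded messenger RNAs (median -0.13). Of the genes with a symbol of cytosolic ribosomal proteins, a list that also holds S6 kinases and pseudogenes, 24 of 91 were lower (median -0.30).

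In WT control mice at CT26 against CT22 and CT30, the same lists gave 3 of 5 ribosome proteins with other symbols higher, namely *Gadd45gip1* (0.40) and, in the small subunit, *Chchd1* (0.35) and *Dap3* (0.31). Of the assembly genes 4 of 26 were higher, *Rpusd3* at 0.72, *Ybey* at 0.41, *Malsu1* at 0.34, and *Mettl17* at 0.28. Of 15 translation factors 2 were higher, *Oxa1l*, the insertase of the inner membrane (0.31), and *Tufm* (0.29). Of 20 aminoacyl-tRNA genes, *Fars2* (0.40) and *Gatb* (0.31) were higher and *Gatc* (-0.29) lower. Of 91 cytosolic ribosomal protein genes 34 were higher and 2 lower (median 0.24). No gene of the lists for mitochondrial DNA and for nuclear regulators was called, *Foxp1* was lower (-0.51, adjusted p = 0.0204), and of the mitochondrial messenger RNAs *mt-Nd5* was lower (-0.48).

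In FoxP1SkmKO muscle at CT26 the KPC effect had the same sign for most members and was smaller. The median was -0.11 (-0.0028 over all genes), 64 members were negative, and in 39 both KPC mice lay below both controls, where 18.3% of all genes did so, and in 4 above, where 20.3% did. A single member was called lower, where 0.0320% of all genes were, and 16 had p under 0.05 before adjustment (8.90% of all genes). *Mrpl20* (chr4:155887335-155894432) was at 10.8 FPKM in both controls and at 7.03 and 6.63 FPKM in the KPC mice (-0.67, SE 0.13, adjusted p = 0.0353). Its KPC mice lay far below its controls, yet the call was lost when any of these 4 libraries was left out, with log2 fold changes from -0.71 to -0.63.

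The 17 members called in WT mice at CT26 were all negative in FoxP1SkmKO mice as well, with a median of -0.18, a range of -0.34 to -0.0027, and 0 called (lowest adjusted p = 0.369). These 17 were chosen by the WT contrast, so their values here are a description. *Mrpl12* was at 79.5 and 71.9 FPKM in FoxP1SkmKO controls and at 65.4 and 55.2 FPKM in KPC mice (-0.34), close to its WT change of -0.39. *Mrpl32* was at 2.36 and 2.02 FPKM against 1.87 and 1.80 FPKM (-0.26), and *Mrpl15* changed by -0.073. The test of the difference between genotypes at CT26 called 0 of 77 members by edgeR and by DESeq2, with 7 at p under 0.05 before adjustment, where 0.345% of all genes were called and 11.0% had such a p. The difference was 0.41 (SE 0.15) for *Mrpl15*, 0.33 for *Mrps27*, 0.24 (SE 0.16) for *Mrpl32*, 0.059 (SE 0.16) for *Mrpl12*, and -0.26 (SE 0.18) for *Mrpl20*.

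**Figure D4:**
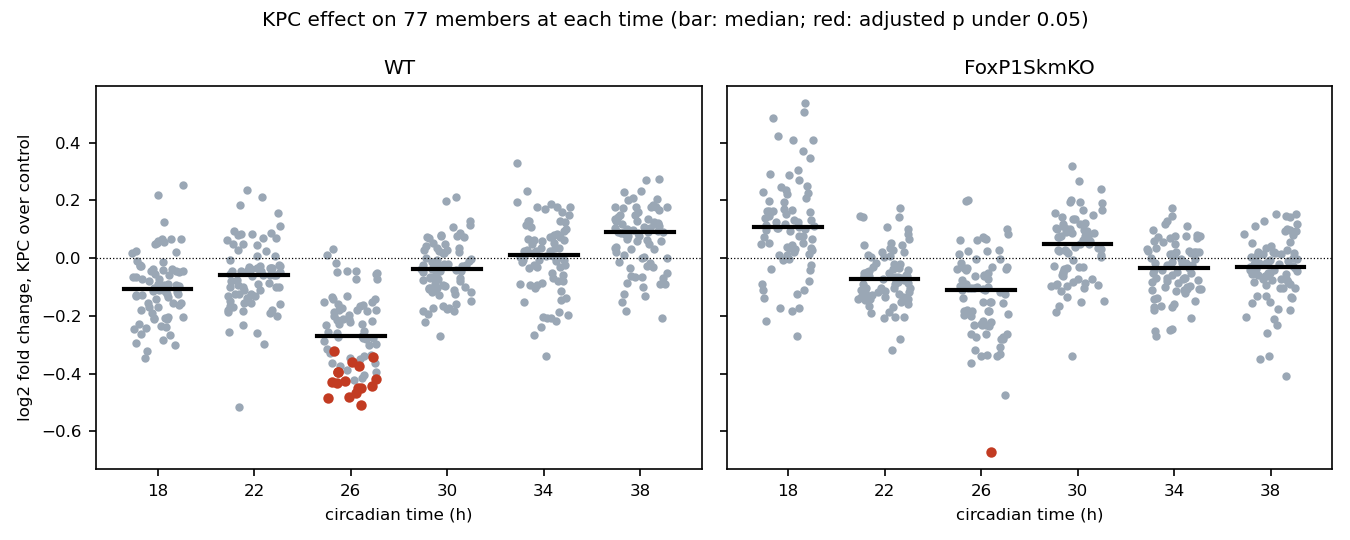
log2 fold change of KPC over control for the 77 members at each circadian time in hours, in WT (left) and FoxP1SkmKO (right), with black bars for medians and red points for adjusted p under 0.05. The 17 calls in WT and the call of *Mrpl20* in FoxP1SkmKO are all at CT26, and at CT18 the medians are -0.11 in WT and 0.11 in FoxP1SkmKO.

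At the other 5 times no member was called in either genotype by edgeR or by DESeq2. In WT mice the medians were -0.11 at CT18, -0.058 at CT22, -0.038 at CT30, 0.010 at CT34, and 0.089 at CT38, where 57 members were positive. The number with p under 0.05 before adjustment was 8 at CT18 (6.23% of all genes), 3 at CT22 (4.77%), 1 at CT30 (5.21%), 1 at CT34 (6.06%), and 2 at CT38 (9.82%). Of all genes, 0.00640% were called at CT30, 0.0256% at CT38, and 0% at the other times. At CT18 the lowest p was that of *Mrpl16*, a large subunit gene, at 11.3 and 10.4 FPKM in controls and 8.46 and 9.31 FPKM in KPC mice (-0.29, adjusted p = 0.708). In FoxP1SkmKO mice the medians were 0.11 at CT18, -0.074 at CT22, 0.050 at CT30, -0.036 at CT34, and -0.032 at CT38. Apart from CT18 and CT26, 2 members had p under 0.05 at CT22 (4.69% of all genes), 2 at CT30 (8.95%), 1 at CT34 (4.05%), and 2 at CT38 (8.05%), and 0.00640% of all genes were called at CT38 and 0% at the other 3 of these times. The difference between genotypes was called for 0 members at CT22, CT30, CT34, and CT38, where at most 0.00640% of all genes were called, and 1, 0, 0, and 1 members had p under 0.05 before adjustment (5.27, 4.96, 4.51, and 4.18% of all genes).

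At CT18, as at CT30, CT34, and CT38, the medians of the genotypes had opposite signs. In FoxP1SkmKO mice 61 members were positive, both KPC mice lay above both controls in 33 and below in 7 (20.5 and 20.2% of all genes), and 14 had p under 0.05 before adjustment (13.8% of all genes, with 0.0192% called). *Mrps24* had the lowest p, at 21.2 and 20.1 FPKM in controls and 24.3 and 30.0 FPKM in KPC mice (0.41, adjusted p = 0.108). *Mrps18a* was at 9.01 and 9 FPKM against 11.4 FPKM in both KPC mice (0.35, adjusted p = 0.127), with no overlap. Without the library that carried liver RNA, the median over members was 0.094, again with 0 called. The difference between genotypes had a median of 0.21 with 69 members positive and 15 at p under 0.05 before adjustment, where 0% of all genes were called and 10.4% had such a p, and it was called for 0 members by edgeR and by DESeq2. In KPC mice of both genotypes erythroid markers at CT18 exceeded those at every other time (231 and 225 FPKM in WT against 135 to 213, and 237 and 266 FPKM in FoxP1SkmKO against 108 to 221), and their part in these values was not tested.

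Change over the 6 times was tested in each genotype and condition. In WT control muscle 30 of 77 members changed, where 18.7% of all genes did, and all 30 were highest at CT26. The lowest time of these 30 was CT18 for 15, CT34 for 12, and CT30 for 3. *Mrpl4* is an example, chosen like the other examples here after the values were seen, with 16.1 and 18.1 FPKM at CT34 and 26.6 and 27.2 FPKM at CT26 (adjusted p = 0.000109). Without CT26, an alternative added after seeing the data, 1 member was called.

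In WT KPC muscle 17 members changed (11.0% of all genes). All 17 were lowest at CT18, and 16 were highest at CT38. *Mrpl57* was at 4.94 and 5.71 FPKM at CT18 and at 10.6 and 8.29 FPKM at CT38 (adjusted p = 0.00211). In FoxP1SkmKO control muscle 13 changed (6.40% of all genes), all lowest at CT18, and 7 of them highest at CT26. *Mrpl27*, the most variable member, was at 10.9 FPKM in both mice at CT18 and at 22.0 and 21.3 FPKM at CT34, a 1.99-fold range (adjusted p = 0.00635). *Mrpl20* was at 5.98 and 6.99 FPKM at CT18 and at 10.8 FPKM in both mice at CT26 (adjusted p = 0.00383).

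In FoxP1SkmKO KPC muscle 2 members changed (5.99% of all genes), *Mrpl32* (adjusted p = 0.0108) and *Mrpl30* (adjusted p = 0.0388), both lowest at CT26. *Mrpl30* was at 16.3 and 16.0 FPKM at CT26 and at 21.7 and 22.7 FPKM at CT34, so that both CT26 mice stood below both CT34 mice. When CT18 was left out, as an added alternative, 20 members were called in WT control, 1 in WT KPC, 0 in FoxP1SkmKO control, and 2 in FoxP1SkmKO KPC muscle. The count in WT control mice thus turned on CT26, and the counts in WT KPC and FoxP1SkmKO control mice turned on CT18.

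**Figure D5:**
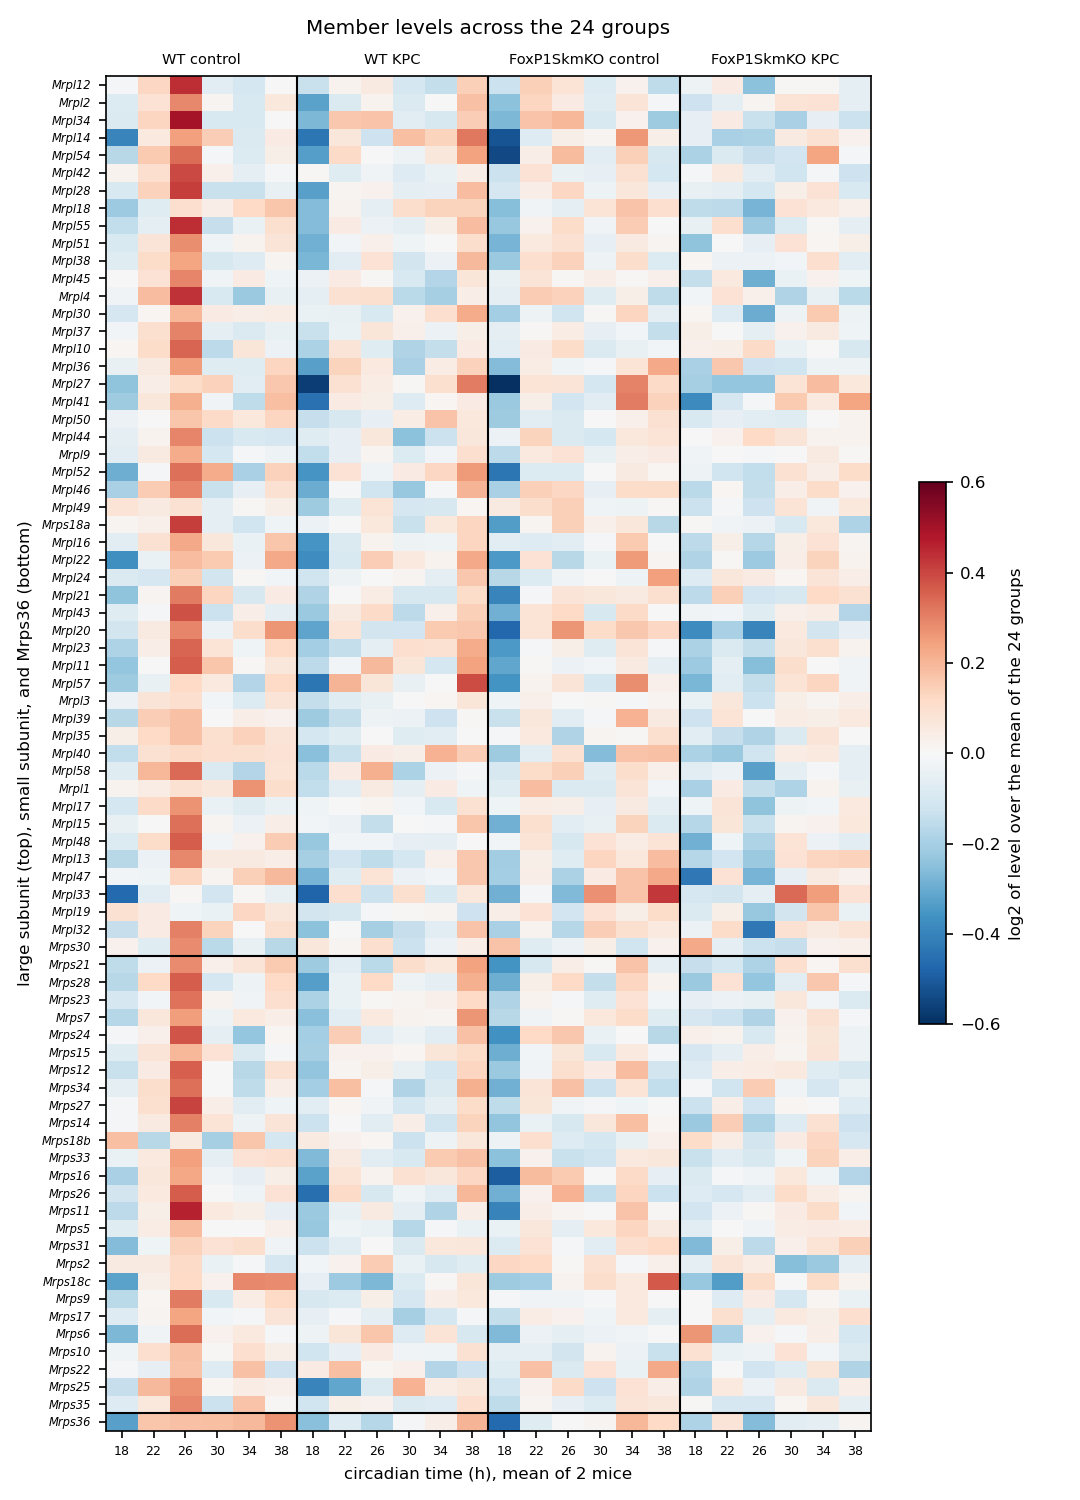
Level of each of the 77 members in the 24 groups, as log2 of the mean of 2 mice over the mean of the 24 groups, with color limits at -0.6 and 0.6, members ordered by mean level within each subunit, and circadian time in hours along the horizontal axis. The WT control CT26 column is red for nearly every member of both subunits, and the CT18 columns of WT KPC and FoxP1SkmKO control are blue for most members.

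Over all 77 members, tested or not as changing, the time of the highest mean was CT26 for 67 in WT control muscle and CT38 for 58 in WT KPC muscle. The time of the lowest mean was CT18 for 44 members in WT control, 57 in WT KPC, and 56 in FoxP1SkmKO control muscle. In FoxP1SkmKO KPC muscle it was CT18 for 27 and CT26 for 28. At CT18 the summed level was 1161 and 1112 FPKM in WT control, 1034 and 1067 FPKM in WT KPC, and 1031 and 1053 FPKM in FoxP1SkmKO control mice. In the latter 2 groups these were the lowest mice of their 12, whereas in WT control muscle 1 mouse at another time (1156 FPKM) lay between the CT18 mice. In FoxP1SkmKO KPC muscle the CT18 mice (1110 and 1185 FPKM) lay within the range of the other times (1105 to 1302 FPKM). Slow fiber markers were higher at CT18 than at any other time in WT control (36.3 and 38.6 FPKM against 18.2 to 31.7) and FoxP1SkmKO control mice (27.9 and 30.2 FPKM against 15.8 to 26.9), and their part in the CT18 levels was not tested.

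By the number of calls, a sinusoid with a period of 24 h described few members. For rhythm, all genes means every gene whose FPKM varied in the mice tested, without the filter on low counts. At p under 0.01 without adjustment, 1 member was rhythmic in WT control muscle (4.92% of all genes), 2 in WT KPC (4.22%), 0 in FoxP1SkmKO control (4.07%), and 1 in FoxP1SkmKO KPC muscle (2.63%). At p under 0.05 there were 4, 5, 9, and 7 members in these groups, in the same order, where 13.8, 11.4, 11.7, and 8.49% of all genes had such a p. With Benjamini-Hochberg adjustment over all genes, 0 members were rhythmic in any group, where 0.551, 0.475, 0.414, and 0.116% of all genes were. The share of variance that the sinusoid explained had a median of 0.262 over members in WT control muscle (0.193 over all genes). This median was 0.128 in WT KPC (0.182), 0.250 in FoxP1SkmKO control (0.182), and 0.190 in FoxP1SkmKO KPC muscle (0.182). *Mrpl4* in WT control mice had a peak at CT24 and an amplitude of 18.4% of its basal 20.7 FPKM (adjusted p = 0.187). In WT KPC mice *Mrpl50* peaked at CT33.5 (adjusted p = 0.179) and *Mrpl23* at CT34.0 (adjusted p = 0.234). In FoxP1SkmKO KPC mice *Mrpl33* peaked at CT32.5 with an amplitude of 16.3% (adjusted p = 0.190).

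The fitted peaks of all 77 members, rhythmic or not, fell between CT20 and CT28 for 55 members in WT control mice. They fell between CT28 and CT36 for 47 members in WT KPC, 50 in FoxP1SkmKO control, and 45 in FoxP1SkmKO KPC mice. A difference in rhythm between KPC and control mice was called for 0 members after adjustment, in either genotype, where 0% of all genes were called. Before adjustment, 8 members had p under 0.05 in WT mice (5.07% of all genes), with the lowest p for *Mrpl30* (adjusted p = 0.752), and 0 did in FoxP1SkmKO mice (5.09% of all genes).

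Of the 17 members called lower in WT KPC muscle at CT26, 14 had a promoter window, and 10 of these held an NRF1, ETS, or YY1 motif. *Mrpl32*, *Mrps21*, *Mrps18a*, and *Mrps27*, printed above, are among the 10, and the window of *Mrpl55*, held none of the 6 motifs. Since 44 of 75 member windows hold 1 of these 3 motifs, no difference between called and other members is drawn from this count.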

How the data were processed

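RNA-seq of tibialis anterior muscle was analysed in 48 libraries, grouped by genotype, condition, and circadian time from the labels. The authors deposited raw read counts per gene and FPKM values, computed from counts, gene length, and library size, on mm39. The methods name STAR and HTSeq whereas the submitters' processing notes name HISAT2 2.0.5 and DESeq2 1.20.0, and strand use in counting is not given in the sources used here. The authors also deposited counts divided by size factors, fold changes, and p-values of 12 comparisons of 4 libraries each, which were not used.

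Counts were tested with edgeR 4.0.16 (R 4.3.3). Genes were filtered with filterByExpr (15637 kept), libraries were scaled by TMM, and the quasi-likelihood model had a coefficient for each of the 24 groups and took in the 48 libraries together (prior df 8.61). Contrasts of coefficients gave each comparison, F tests gave change over the 6 times, and calls were made at an adjusted p (Benjamini-Hochberg) under 0.05. Standard errors were derived from the F statistic. Rhythm was tested on FPKM by a least-squares sinusoid of 24 h and an F test (numpy 2.4.6, scipy 1.17.1, pandas 2.3.3, Python 3.11.15). The rhythm tests took in every gene whose FPKM varied, without the filter on low counts. Both procedures were tested on simulated data. Figures were drawn with matplotlib 3.10.9. Nothing in the labels ties mice of a group to separate litters or batches, and p-values measure the spread between mice of a group. Replicates of a group differed by more than counting noise in all 24 groups.

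The members, the gene lists, and the tests were chosen with earlier results of these data known. Named genes were the 5 highest and 3 lowest by mean FPKM, up to 5 called members in each direction for an averaged comparison and up to 3 for a circadian time, up to 3 rhythmic members per group, 15 members with a role in the ribosome's known architecture, and, outside the family, *Foxp1* and called genes of the related lists. Other names were chosen after their values were seen. Alternatives were no filter on low counts, RLE scaling, the replicate number as an added term, DESeq2 1.42.0, limma 3.58.1 on log2(FPKM + 1) and log2(FPKM + 0.1), edgeR on the 4 libraries of a comparison, CT26 left out of averages, other scales and thresholds for rhythm, and each library left out.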

Additional observations from a re-analysis of the deposited data

Results flagged for a closer look

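At CT18 the KPC mice and the control mice differed in opposite directions in the 2 genotypes. The summed FPKM of the members was lower in both WT KPC mice than in both WT control mice (1034 and 1067 FPKM against 1161 and 1112 FPKM, a log2 ratio of means of -0.114) and higher in both FoxP1SkmKO KPC mice than in both FoxP1SkmKO control mice (1110 and 1185 FPKM against 1031 and 1053 FPKM, 0.139). The difference, FoxP1SkmKO minus WT, was 0.253 on the log2 scale, and it was 0.256 for the large subunit and 0.249 for the small subunit. This difference of sums was not tested. The gene-wise test of the difference at CT18 called 0 of 77 members by edgeR. The library with liver RNA is 1 of the 2 FoxP1SkmKO KPC mice. The other had the fewest counts of the 48 libraries (14480867) and the lowest TMM factor (0.932). These sums are of FPKM, to which TMM scaling was not applied. The part of either library in the difference was not tested.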

How the results depend on the processing

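Of the called members, the alternatives were followed for *Mrpl35* in the WT average, *Mrpl32*, *Mrpl55*, and *Mrpl15* in WT KPC mice at CT26, *Mrpl20* in FoxP1SkmKO KPC mice at CT26, *Mrpl55*, *Mrpl34*, and *Mrpl43* in the WT control contrast at CT26, and *Mrpl32* in that of FoxP1SkmKO KPC mice, and none of these values changed sign. With 2 mice a group, single libraries decided several counts of called members. The KPC effect in WT mice at CT26 gave 17 members, 0 to 24 when a library was left out, and 3 when the 4 libraries were fitted alone. The rise in WT control mice at CT26 gave 28, and 1 to 33 when a library was left out. Left-out libraries gave 0 to 3 members for the averaged KPC effect in WT, 0 to 1 in FoxP1SkmKO, 0 to 1 for genotype in control mice, 0 to 1 for the KPC effect in FoxP1SkmKO at CT18, 0 to 0 there at CT26, 0 to 1 for the difference at CT18, and 0 to 1 for the CT26 contrast in FoxP1SkmKO KPC mice. For rhythm they gave 0 to 3 in WT control, 0 to 3 in WT KPC, 0 to 6 in FoxP1SkmKO control, and 1 to 4 in FoxP1SkmKO KPC mice, and for a difference in rhythm before adjustment 2 to 12 in WT and 0 to 5 in FoxP1SkmKO mice.

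The averaged KPC effect in WT (1 member) gave 0 with no filter or without CT26, and 2 with limma on either log2 FPKM scale. In FoxP1SkmKO (0 members) it gave 1 with no filter, RLE, DESeq2, or limma on log2(FPKM + 1). Genotype in control mice gave 1 without CT26. The KPC effect in FoxP1SkmKO at CT18 and the difference at CT18 each gave 1 with no filter, and the call of *Mrpl20* at CT26 gave 0 with the 4 libraries alone. The call of *Mrpl32* in FoxP1SkmKO KPC mice at CT26 gave 0 with no filter or DESeq2. Change over time gave 1 in WT control and 0 in FoxP1SkmKO KPC mice without CT26, 1 in WT KPC and 0 in FoxP1SkmKO control mice without CT18, and 4 in FoxP1SkmKO KPC mice with no filter. These removals of a time, and the CT26 contrasts outside WT control mice, were chosen after seeing the data. Rhythm with Benjamini-Hochberg adjustment gave 0 in every group, a count model with sine and cosine terms gave 5 in WT control and 2 in FoxP1SkmKO control, and log2(FPKM + 1) and log2(FPKM + 0.1) each gave 2 in FoxP1SkmKO KPC mice. The causes were not tested.

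Replicate numbers are shared between groups in the labels, and same-numbered mice did not in general deviate together (r from -0.29 to 0.34, median -0.0071). No pairing of mice by number was thus seen, though with 2 mice a group a weak one could be missed. With the replicate block, the count at CT26 was 18 for the KPC effect in WT and 28 for the rise in WT control mice, and change over time gave 27, 17, 13, and 2 members in WT control, WT KPC, FoxP1SkmKO control, and FoxP1SkmKO KPC mice. The averaged KPC effect in FoxP1SkmKO gave 1, and rhythm gave 0 in WT control and 1 in WT KPC mice with the block. For these called members, 70 values under the alternatives stayed on their side of the threshold and 36 lost the call. The median SE of a member's log2 KPC effect at CT26 in WT mice was 0.12, which limits what a single time can show.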
